A study of Enallax costatus with 10 samples.

Results

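In the green alga Enallax costatus, the transcripts described here are the 73 assembly genes, of 32478 in all, whose level was highest 1 h after dried cells were given water back. They were chosen from measured values. In the deposited table of length-normalised expression, the lower of the 2 Rehydrated values had to be at least 4 times the highest value in any of the 8 other libraries. Both Rehydrated libraries also had to hold at least 20 counts, a minimum that 1664 assembly genes met. The high Rehydrated level is therefore a description and carries no test.

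RNA came from strain CCAP 276-31, grown for 6 weeks in flasks of BBM+WH medium and left to dry on cover glass in 40 µL drops. The course had 5 stages with 2 libraries each: Hydrated drops at 0 h, Early desiccation at 2.5 h with 25% of the volume gone, Late desiccation at 7.5 h with 60% gone, Dry drops at about 24 h that had lain flat for 11 h, and Rehydrated drops 1 h after rewetting. All groups share the strain, the medium and the drop format, and the labels name no genotype or added agent. Nothing in the labels says that the paired libraries had separate cultures as their source, and p-values then measure only the spread between libraries, which may be technical. Total expected counts ran from 1974807 to 3867190 per library, and the Rehydrated libraries were the smallest.

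When a green alga dries in air, its cells lose water, photosynthesis stops, and membranes and proteins can be damaged. Rewetting is a stress of its own, and in species that survive it, repair and renewed photosynthesis follow. A transcript can become a larger part of the RNA after rewetting because more of it is made or because other transcripts are lost, and bulk RNA-seq reports only its part of the total. In such samples fewer cells of a type and less RNA per cell cannot be told apart either.

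The deposited tables identify the members only by codes of the kind the Trinity assembler writes, in which the first part names a read cluster, the second a component of it and the last a gene of that component. The files do not pair these codes with gene names, proteins or sequences. Functions and marker genes could not be assigned, so the labelled organism was not checked against markers and few codes are printed. Such a gene may be a piece of a real gene, or one among near-identical copies. Without sequences the number of separate RNAs behind the 73 members is not known, nor whether they are nuclear, organellar or residual ribosomal RNA.

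A small number of assembly genes took a large part of the counts after rewetting. The 73 members, 0.225% of the assembly genes, held 23.7% of all counts in Rehydrated 1 and 35.3% in Rehydrated 2. Before rewetting they held 1.86% and 2.82% of the Hydrated libraries, 1.26% and 1.52% of Early desiccation, 3.03% and 3.63% of Late desiccation, and 1.37% and 1.32% of Dry (replicates 1 and 2). Both Rehydrated libraries lay far above the other 8, as the choice of members requires. Of the 100 most abundant assembly genes, 44 were members in Rehydrated 1 and 48 in Rehydrated 2, against 1 to 14 in the other libraries.

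**Figure D1:**
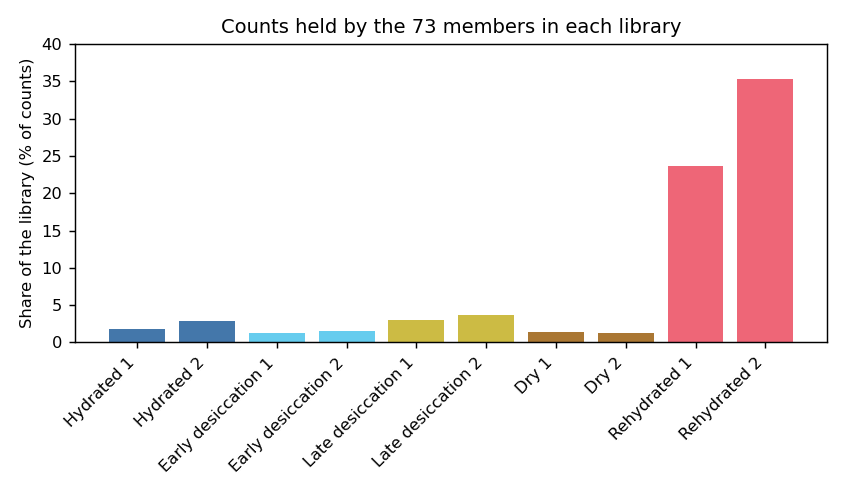
Share of each library's counts held by the 73 members, in percent, as 1 bar per library coloured by stage. The Rehydrated bars reach 23.7% and 35.3%, and the other 8 lie between 1.26% and 3.63%.

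Most members were abundant rather than rare. Their median expected count was 3229 in Rehydrated 1 and 5033 in Rehydrated 2, and 55 of them had at least 1000 counts in both. For 8 members the lower Rehydrated count was under 100. The ratio that defined the list, the lower Rehydrated value over the highest other value, had a median of 8.0. It was under 8 for 36 members and 16 or more for 5, with a highest value of 136. The highest of the 8 other values fell in a Late desiccation library for 39 members, in Dry for 19 and in Hydrated for 15, and in Early desiccation for none. The replicates were unequal in this. Late desiccation 2 held 32 and Late desiccation 1 held 7, Hydrated 2 held 15 and Hydrated 1 held 0. Dry 1 held 7 and Dry 2 held 12. Just inside the threshold were members with ratios of 4.04, 4.07 and 4.15, and just outside it were assembly genes with 3.97, 3.95 and 3.95.

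The 2 members with the highest lower Rehydrated value stood far above the rest. TRINITY_DN221424_c5_g1 had expression values of 3218 and 3386 in Hydrated, 6822 and 6464 at Early desiccation, 18759 and 10890 at Late desiccation, 5593 and 8638 in Dry, and 81670 and 170124 in Rehydrated. It had an earlier high point in Late desiccation, where both libraries exceeded the other 6, and its Rehydrated values were 4.35 times that point or more. Its effective length, taken as count over expression value, was 0.0186 times that of the median well-counted gene, the shortest of the members. Per-length values are large for such a short sequence, and it held 14632 and 23165 counts in Rehydrated.

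TRINITY_DN39845_c0_g4 held the most counts of all members after rewetting, 54195 and 97299 in Rehydrated, or 2.74% and 4.79% of those libraries. Its expression values were 366 and 440 in Hydrated, 787 and 440 at Early desiccation, 2795 and 1507 at Late desiccation, 493 and 791 in Dry, and 36211 and 97238 in Rehydrated. As with the gene above, the Late desiccation libraries were the next highest after Rehydrated. The step from Hydrated to Late desiccation did not pass the test for either gene, with log2 fold changes of 3.20 (SE 0.79, edgeR adjusted p = 0.224) for TRINITY_DN221424_c5_g1 and 2.74 (SE 0.82, adjusted p = 0.309) for TRINITY_DN39845_c0_g4. Both were called in the fit of the 8 libraries other than Rehydrated, with an adjusted p of 0.0338 and 0.0470, and by DESeq2. Over all settings tried the adjusted p ran from 0.000365 to 1 for TRINITY_DN221424_c5_g1 and from 0.00773 to 1 for TRINITY_DN39845_c0_g4.

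**Figure D2:**
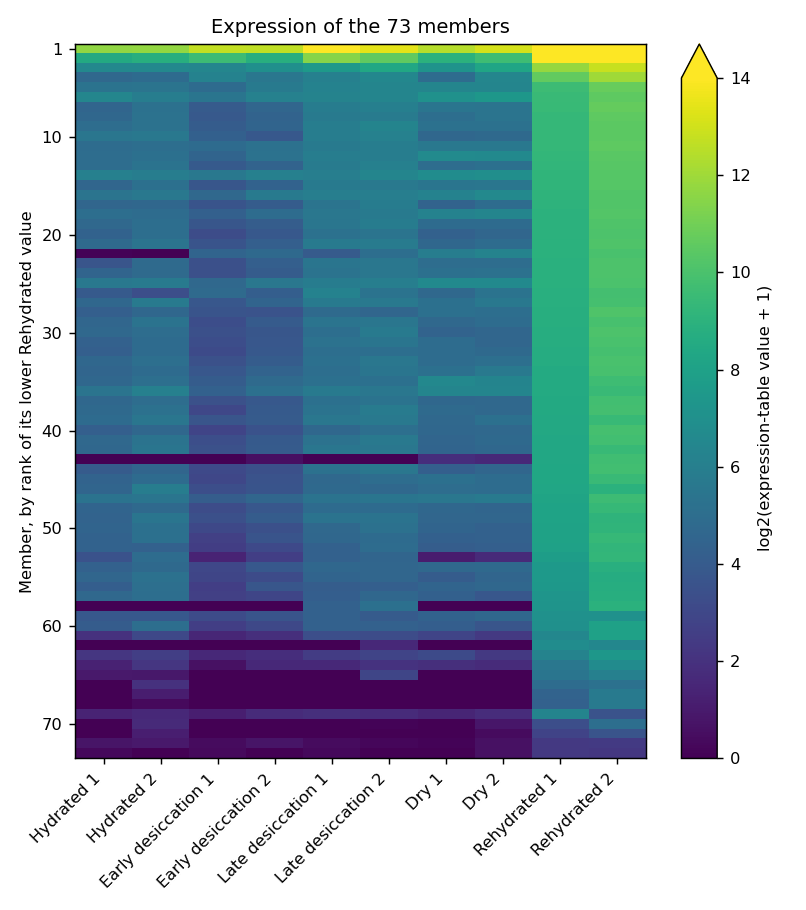
Expression-table values of the 73 members, one row per member ordered by its lower Rehydrated value and one column per library, as log2(value + 1). The Rehydrated values are the highest in every row by the choice of members. The colour scale has an upper limit, which Late desiccation 1 also reaches in the top row, so its colour there equals that of Rehydrated. The dark rows are members with few or no counts in some earlier libraries.

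The libraries of the Rehydrated stage differed from each other more than those of any other stage. Over all assembly genes, the correlation across genes of log2(CPM + 1), where CPM is a gene's counts scaled to a common library total, was 0.624 between them and between 0.864 and 0.959 within the other stages, and Rehydrated 2 had 319 genes with 100 counts or more against 1343 in Rehydrated 1. The choice of members used both Rehydrated values, so what follows on this pair is a description. Across the 73 members, log2 CPM in Rehydrated 1 and 2 had a correlation of 0.979, against 0.733 across the 1591 other genes with at least 20 counts in both; these points share the same pair of libraries, and the members' median counts of 3229 and 5033 were far above the 122 and 33 of the other genes. The members' share of counts was higher in Rehydrated 2 for 66 of 73, with a median ratio of 1.46 and quartiles of 1.35 and 1.55. Among the 1591 other genes the share was higher in Rehydrated 2 for 18.4%, with a median ratio of 0.341. In Rehydrated 2 the members thus held more of a library in which fewer genes were well counted.

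**Figure D3:**
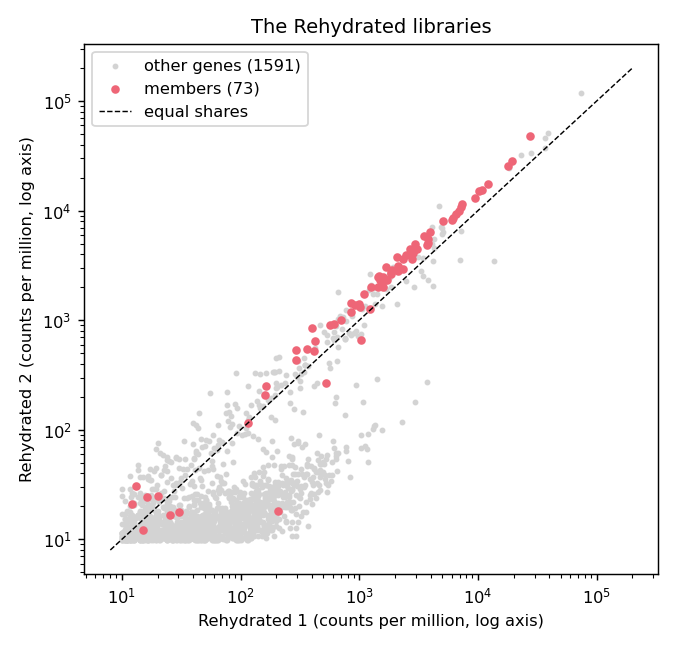
CPM in Rehydrated 1 (horizontal) and Rehydrated 2 (vertical), both log axes, for the 73 members (red) and the 1591 other genes with at least 20 counts in both libraries (grey). Most members lie in a narrow band above the dashed line of equal shares, and 18.4% of the other genes lie above that line.

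Before rewetting the members moved together, a property the choice did not require beyond keeping all 8 values low. Of the 73, 60 had a mean of 50 or more counts over the 8 libraries other than Rehydrated, and 6371 other genes reached that mean. The median profile of these 60 members, as log2 share of counts relative to its own mean, stood at 0.18 and 0.80 in Hydrated, -0.89 and -0.43 at Early desiccation, 0.53 and 0.97 at Late desiccation, and -0.46 and -0.59 in Dry. It was low in Early desiccation and Dry and high in the other 2 stages. A lower share in Dry than in Hydrated was common among all genes at this count level, as given below. Around this profile, computed without the member itself, a member's 8 values had a median SD of 0.317 on the log2 scale. Against the same profile the other genes had a median SD of 1.13. The SD was under 0.5 for 45 of 60 members (75%) and for 27 of 6371 other genes (0.424%). Correlation with the profile over the 8 libraries was above 0.9 for 36 of 60 members and 5 of the other genes; the libraries share their depth and the counts of abundant genes, so this is a description.

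**Figure D4:**
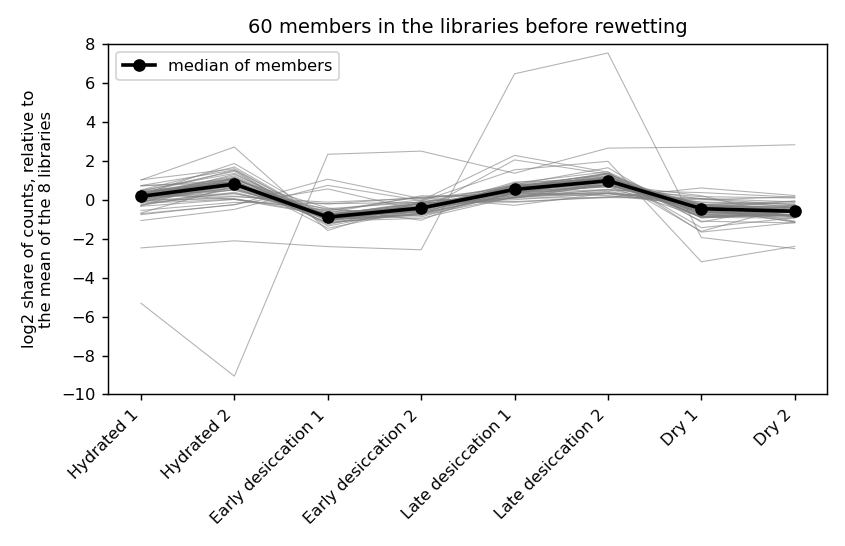
Share of counts of 60 members in the 8 libraries other than Rehydrated, as log2 relative to each member's mean of those libraries (grey lines), with the median of members in black. The median runs from -0.89 in Early desiccation 1 to 0.97 in Late desiccation 2, and a few members depart from it, one with a minimum in Hydrated and one with counts in Late desiccation alone.

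As shares of counts, the members fell back in Early desiccation and came up again in Late desiccation. In Early desiccation 48 of the 60 members had both libraries below both Hydrated libraries and 3 had both above, against 28.5% and 28.6% of all 6431 genes at this count level. The members' median share was 0.431 times that of Hydrated, whereas the median over all these genes was 0.997 times. In Late desiccation 55 of 60 members had both libraries above both Early desiccation libraries, against 9.08% of all these genes, and none had both below, against 59.4%. The median ratio was 2.70 for the members and 0.678 for all. Late desiccation and Hydrated overlapped for 43 of the 60, with 15 higher, against 12.1% of all these genes, and 2 lower, against 56.4%. In Dry 53 of 60 lay below Late desiccation, against 53.7% of all these genes, and 2 above, against 28.3%. Relative to Hydrated, 46 of 60 lay below in Dry, against 68.7%, and 3 above, against 17.7%. The median ratio of Dry to Late desiccation was 0.397 for the members and 0.614 for all. That of Dry to Hydrated was 0.482 for the members and 0.408 for all, so the members' share fell less than that of the median gene.

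Within stages, the second library usually held more of the members than the first. The share of counts was higher in replicate 2 for 56 of the 60 members in Hydrated (median ratio 1.55), 54 at Early desiccation (1.38) and 57 at Late desiccation (1.31). In Dry it was higher for 22 (0.934). The matching shares of all genes are not given, so these counts are not shown to be particular to the members. Differences of this size within a stage are as large as some of the steps between stages, and their part in those steps was not tested.

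Tests across all genes were made for the 5 comparisons that leave Rehydrated out, since the choice of members used Rehydrated against every other stage. edgeR's quasi-likelihood test took all 10 libraries in 1 fit with TMM scaling, and a gene was called at a Benjamini-Hochberg adjusted p under 0.05. All 73 members were among the 16190 genes tested, but 7 of them passed the filter on low counts only through their Rehydrated counts. Against Hydrated, no member was called in Early desiccation and none in Late desiccation, where 0% of all genes were called. Of the 66 members that passed the filter without Rehydrated, 11 were lower in Early desiccation at an unadjusted p under 0.05 and 2 were higher. Of all genes tested 7.26% were lower and 3.74% higher, or 11% in either direction. The 11 lower members became 42 without both Rehydrated libraries. With the library split as a term they became 3. This split sets Hydrated 2, Late desiccation 2 and both Rehydrated libraries against the other 6. Fewer were lower without Hydrated 2 or either Early desiccation library, and more without either Rehydrated library. The shares of all genes at an unadjusted p in these refits are not given, so these counts have no background beside them. The median log2 fold change of the 73 members was -0.58 without Hydrated 2, -0.71 without Early desiccation 1 and -1.26 without Early desiccation 2. That of all genes was 0, -0.23 and -0.21. In Late desiccation 7 of the 66 were higher and none lower, against 4.86% and 4.69% of all genes, or 9.55% in either direction. The 7 became 22 without both Rehydrated libraries, where the matching share of all genes is not given either. Fewer were higher without Hydrated 1, and more without either Rehydrated library. Without Hydrated 1 the median log2 fold change of the 73 members was 0.44 and that of all genes -0.05. DESeq2 called 6 members in each of these comparisons, against 1.16% and 1.18% of all genes, and edgeR on the 8 libraries without Rehydrated called 3 and 5 of 66, against 1.44% and 1.62%. The members' median log2 fold change was -0.99 for Early and 0.60 for Late desiccation, and that of all genes tested was -0.07 and -0.03. These medians cover all 73 members. For the 66 members in the fit without Rehydrated they were -1.02 and 0.60, and those of all genes -0.07 and -0.01.

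The largest common shift was from Early to Late desiccation. Of the 73 members, 66 had a positive log2 fold change, with a median of 1.76 (median SE 0.67), against a median of 0.05 over all genes. These 73 include members that passed the filter on low counts only through Rehydrated. In the fit without Rehydrated the median of the remaining members was 1.80, against 0.055 over all genes. None was called by edgeR, as for all genes (0%), and the lowest adjusted p was 0.658. At an unadjusted p under 0.05, 43 of the 66 members that passed the filter without Rehydrated were higher and none lower, against 7.55% of all genes in either direction, 5.57% higher and 1.98% lower. DESeq2 called 18 members, all higher, among 56 genes called in all (0.172% of 32476). Those 32476 include genes that the edgeR filter on low counts removed, so this share has a wider base than those of edgeR. In the fit of the 8 libraries other than Rehydrated, 57 of these 66 members had an unadjusted p under 0.05, against 13.9% of all genes, and none was called. The median stayed positive under every scaling tried, at 1.83 with RLE size factors, 1.80 with upper-quartile factors and 1.43 with total counts. The 43 members became 14 with the library split as a term, where the matching share of all genes is not given. Without Early desiccation 1 the median log2 fold change of the 73 members was 1.43, against 0.14 over all genes. Without Early desiccation 2 the members' median was higher than in the main fit, and that of all genes was 0.15. The members' median was 1.72 without Late desiccation 1 and 1.58 without Late desiccation 2, against 0.02 and 0 over all genes.

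**Figure D5:**
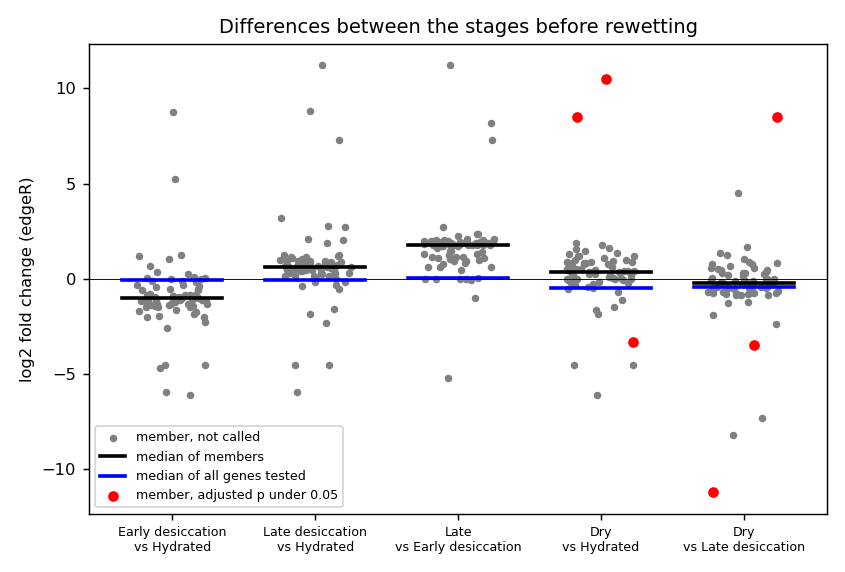
Log2 fold changes of the 73 members from edgeR in the 5 comparisons without Rehydrated (points, spread sideways for legibility), with the median of members (black) and of all 16190 genes tested (blue); red points have an adjusted p under 0.05. Members lie mostly below 0 in Early desiccation against Hydrated and above 0 in Late against Early desiccation, and 3 members are red in each comparison with Dry.

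Few members were called in Dry. The 73 tested include 7 that passed the filter on low counts only through Rehydrated, and these had few counts to test. The 4 members called by the main fit were among the other 66. Against Hydrated, 3 of 73 passed the test (4.11%), against 13.1% of all genes; 2 were higher, against 7.7%, and 1 was lower, against 5.38%. Against Late desiccation 3 passed as well, against 17.8% of all genes; 1 was higher, against 9.97%, and 2 were lower, against 7.82%. In Dry against Hydrated other fits called 11 of 66 members without the Rehydrated libraries (28.4% of all genes), 7 by DESeq2 (9.78%) and 8 with total counts (27.3%). Against Late desiccation they called 8 of 66 (33.3%), 5 (11.4%) and 14 (17.8%). The direction of the members as a whole depended on the scaling. Their median log2 fold change from Hydrated to Dry was 0.39 with TMM and -1.10 with total counts, while that of all genes was -0.50 and -1.96, below the members' median in both. For the 66 members in the fit without Rehydrated it was 0.43, and that of all genes was -0.44. The 4 members called in these comparisons were named because they were so few, 3 of them after their values were seen.

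TRINITY_DN203705_c1_g1 was higher in Dry than in Hydrated (log2 fold change 10.47, SE 1.33, edgeR adjusted p = 0.00217). Hydrated held 8 and 0 of its counts, Early desiccation 1651 and 2073, Late desiccation 644 and 1687, Dry 1542 and 2497, and Rehydrated 12010 and 16648. The gene was almost without counts in Hydrated and well counted at every later stage. The other assembly gene of its component, which was not a member, had the opposite pattern at the start, with 3153 and 3280 counts in Hydrated and 124 and 994 in Early desiccation. Summed, the component held 3161 and 3280 counts in Hydrated, 2412 and 3306 in Dry, and 14488 and 20864 in Rehydrated. The sum did not pass the test in Dry (log2 fold change 1.36, SE 0.67, edgeR adjusted p = 0.176), while its lower Rehydrated expression value was 5.97 times the highest other.

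TRINITY_DN263498_c1_g3 was higher in Dry than in Hydrated, with a log2 fold change of 8.52 (SE 1.94, adjusted p = 0.0260 by edgeR), and than in Late desiccation (8.52, SE 2.13, adjusted p = 0.0286 by edgeR); both are fitted against 0 counts and are no bound. Neither call held with the split term or without either Dry library. The call against Hydrated was also lost without either Hydrated library and by limma, and that against Late desiccation without either Late desiccation library; in these fits the adjusted p lay between 0.0516 and 0.121. No counts were found in Hydrated or Late desiccation, 0 and 15 in Early desiccation, 24 and 25 in Dry, and 3138 and 5010 in Rehydrated. The Dry level was low, and nearly all of its counts came after rewetting. Its share in Rehydrated was at least 4350-fold higher than in Hydrated, taking 3 counts over the stage as the limit of what a count of 0 allows; this covers counting error only. The other assembly gene of its component had 5342 and 3475 counts in Hydrated, 6659 and 10070 in Dry and 2043 and 1528 in Rehydrated. With both summed, the lower Rehydrated expression value was 0.71 times the highest other. The summed counts were higher in Dry than in Hydrated (log2 fold change 2.48, SE 0.68, edgeR adjusted p = 0.0270). They were also higher in Dry than in Late desiccation (2.96, SE 0.69, edgeR adjusted p = 0.0113). As a share of counts the sum was 0.262% and 0.322% in Rehydrated, 0.268% and 0.272% in Dry, and 0.148% and 0.124% in Hydrated.

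TRINITY_DN125347_c2_g4 fell from Hydrated to Dry, with a log2 fold change of -3.32 (SE 0.93, adjusted p = 0.0425 by edgeR), and from Late desiccation to Dry (-3.49, SE 0.94, adjusted p = 0.0296). Its counts were 483 and 1214 in Hydrated, 76 and 242 at Early desiccation, 507 and 736 at Late desiccation, 18 and 46 in Dry, and 3352 and 6260 in Rehydrated. Both Dry counts lay below all the others. The fall against Hydrated did not pass the test without either Hydrated, either Early desiccation, either Late desiccation or either Dry library, where the log2 fold change lay between -3.93 and -2.37, nor with the library split as a term (-2.71). The fall against Late desiccation was not called without either Late desiccation or either Dry library (-4.13 to -3.06), nor with the split term (-3.08). A second member of the same component had 318 and 513 counts in Dry and 625 and 539 in Hydrated, a log2 fold change of 1.01 that did not pass the test. Their sum did not pass either in Dry against Hydrated (-0.18, SE 0.66, edgeR adjusted p = 0.867).

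TRINITY_DN211705_c61_g16 was lower in Dry than in Late desiccation (log2 fold change -11.21, SE 1.74, edgeR adjusted p = 0.00812), a fitted value against 0 counts and no bound. The call did not hold without Dry 2 (adjusted p = 0.0652 by edgeR). There were 179 and 403 counts in Late desiccation, 788 and 1710 in Rehydrated, and none in the other 6 libraries. Its component lists 14 assembly genes, of which 3 are members, and the lower Rehydrated value of their summed expression was 0.462 times the highest other. As a share of counts the component was highest in Rehydrated, at 2.98% and 4.14%, with 1.81% and 1.82% in Dry and at most 1.18% elsewhere. Summed counts of the component were higher in Dry than in Late desiccation, with a log2 fold change of 2.58 (SE 0.75, adjusted p = 0.0289 by edgeR).

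Some reads were divided between the members and other assembly genes. Expected counts more than 0.005 from a whole number, which arise when a read is split between sequences, made up 51.5% of the members' values above 0, against 25.5% for the 1591 other genes with 20 counts in both Rehydrated libraries and 15.7% for all assembly genes. A value with more reads has more chances to hold a split one, and the part of the members' higher counts in this was not tested. Members had another assembly gene in their read cluster in 53.4% of cases, against 62.5% of the 1591 other genes. The 73 members came from 57 read clusters and 64 components, and 10 clusters held 2 to 4 members. A total of 31 members shared their component with another assembly gene and 42 did not. When both tables were summed per component, 55 of 27498 components met the rule, all of them holding members. Of the 22 components with members and partners, 13 met it and 9 did not. Of those 9, 4 had their lower Rehydrated value above all 8 other libraries by less than the required ratio (1.56 to 3.81 times), and 5 did not (0.184 to 0.869 times). In length the members were unremarkable, with a median effective length of 0.959 times that of the median well-counted gene, against 1.03 for the 1591 other genes.

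A smaller set of members had few counts before rewetting. The 13 members with a mean under 50 counts in the 8 other libraries held 1.22% and 0.983% of the members' counts in Rehydrated. Of all 73 members, 11 had a count of 0 in at least 1 of the 8 libraries and 10 in at least 4, while none was at 0 in all 8. One member with 1034 and 541 counts in Rehydrated had 41 counts in Late desiccation 2 and none in the other 7 libraries, so that its share was at least 841-fold higher in Rehydrated than in Hydrated. Another had 0 and 8 counts in Hydrated, 26 and 62 in Rehydrated, and none elsewhere.

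Earlier results of these data had set Hydrated 2, Late desiccation 2 and both Rehydrated libraries apart from the other 6 by genes detected only there. Of the 73 members, 4 (5.48%) had counts in Hydrated 2 or Late desiccation 2 and none in the other 6. The share was 0.754% among the 1591 other genes with at least 20 counts in both Rehydrated libraries. The choice kept every value before rewetting low, which favours genes without counts there, so these shares are a description only. Other sparse members did not follow this split, among them TRINITY_DN263498_c1_g3, whose counts before rewetting lay in Early desiccation 2 and both Dry libraries. Rehydrated lies wholly on one side of this split and Dry on the other, so for Rehydrated against Dry the stage and the split cannot be told apart. For Hydrated and Late desiccation, the second libraries belong to the same side as Rehydrated. The choice itself set every member at least 4 times higher in Rehydrated than in those libraries too. That excess is a property of the choice, and the part of the split in the Rehydrated level was not tested.

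Membership depended on the scaling to a limited extent. With CPM on total counts in place of the expression table, 56 of the 73 members still met the rule. With CPM scaled by TMM, RLE and upper-quartile factors, 66, 72 and 67 did. The deposited expression columns sum to 1342781 and 2610432 for Rehydrated, against 535618 to 1698285 for the other libraries, so a level in that table is not a share of the RNA. On the share of counts the members' total was still 23.7% and 35.3% in Rehydrated, as given above, and no more than 3.63% elsewhere.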

How the data were processed

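RNA from 10 libraries was sequenced, 2 at each of 5 stages. The tools named in the submitters' processing notes are RSEM 1.2.28, Bowtie2 2.2, Trimmomatic 0.35, CASAVA 1.4 and DESeq2; their roles and the assembly are not given in the sources used here. Per the labels' protocols, ribosomal RNA was removed by adaptor cleavage with an Arabidopsis kit and 105 custom oligonucleotides. One deposited table gives the authors' expected counts for each assembly gene. The other deposited table holds a score: length-normalised expression that the authors scaled by 1 TMM factor per library, judged from its name and values. Columns begin with Scos and sample titles with Ecos, and they were matched by replicate number and time code. The column names also hold the word plant, and every share of counts is of the counts deposited under those names. Whether equal replicate numbers mark a shared culture or batch is not known, and the main fit has no block.

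Members were found by the rule on the score table. Expected counts were rounded and analysed in R 4.3.3 with edgeR 4.0.16 (filterByExpr, minimum count 10 and minimum total 15; TMM; glmQLFit and glmQLFTest; stage as the factor; 5 residual degrees of freedom), with p-values adjusted over all genes tested. DESeq2 1.42.0 and limma 3.58.1 on log2(expression value + 1) were alternatives. DESeq2 took all genes without the low-count filter, so its shares are of 32476 genes and the main edgeR shares of 16190. SE is the absolute log2 fold change over the square root of F. Profiles used log2 of the share of counts with 0.5 added to each count. The code was tested on simulated data. No libraries were merged, since chi-square divided by its degrees of freedom was 10.0 to 37.2 within stages, above sampling noise. Floors cover counting error only, as PCR copies were not marked by molecular identifiers.

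The rule for named genes took the 2 members with the highest lower Rehydrated value and up to 2 members called lower in Dry than in Hydrated, of which there was 1. The members, lists and alternatives were chosen with earlier results of these data known. Sums per component were added after seeing the data.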

Additional observations from a re-analysis of the deposited data

How the results depend on the processing

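The list held 116 genes at 2 times and 37 at 8 times in place of 4, and 150 when only Hydrated 2, Late desiccation 2 and Rehydrated were used. Leaving out 1 library gave 73 to 164 genes; without Rehydrated replicate 1 it was 164 and without replicate 2 it was 142. The number of members called moved more. Brackets give the share of all genes called in the same fit. In Early desiccation against Hydrated the number went from 0 to 1 with no filter (0.206%), 6 by DESeq2 (1.16%) and 1 by limma (0.0618%). It was 3 without the Rehydrated stage (1.44%), 1 with the replicate block (0.0803%) and 1 with the library split as a covariate (0.0803%). Without 1 library the members' median log2 fold change lay between -1.26 and -0.58. In Late desiccation against Hydrated the number went from 0 to 2 with no filter (0.151%), 6 by DESeq2 (1.18%) and 2 by limma (0.111%). It was 5 without the Rehydrated stage (1.62%), 2 with the replicate block (0.0494%) and 2 with the split term (0.105%). Without 1 library the members' median lay between 0.44 and 0.88. In Late against Early desiccation the number went from 0 to 1 with no filter (0.0123%) and 18 by DESeq2 (0.172%). It was 0 with the replicate block (0%) and 0 with the split term (0%). Without 1 library the members' median was 1.43 or more. In Dry against Hydrated the number went from 3 to 8 with total counts (27.3%), 7 by DESeq2 (9.78%) and 11 without the Rehydrated stage (28.4%). It was 1 with the split term (7.36%) and 3 with the replicate block (12.2%). Without 1 library the members' median lay between 0.18 and 0.68. In Dry against Late desiccation the number went from 3 to 14 with total counts (17.8%), 5 with no filter (7%) and 5 by DESeq2 (11.4%). It was 8 without the Rehydrated stage (33.3%), 1 with the split term (8.91%) and 3 with the replicate block (17.3%). With counts summed per component, 5 of the 64 components with members were called, 4 higher and 1 lower (22.6% of components tested). Without 1 library the members' median lay between -0.40 and -0.10. Over all genes, the 2117 called in Dry against Hydrated became 4425 with total counts, 4447 without the Rehydrated stage, 1192 with the split term and 365 to 4087 without 1 library, and the 2880 in Dry against Late desiccation became 5204, 1442 and 336 to 4847 in the last 3 of these. The causes were not tested. Signs turned in 4 cases, none of them called: TRINITY_DN125347_c2_g4 in Late desiccation against Hydrated with total counts (-0.34) and without Hydrated replicate 1 (-0.37; 1.13 without Hydrated replicate 2), and TRINITY_DN221424_c5_g1 (-0.67) and TRINITY_DN39845_c0_g4 (-0.70) in Dry against Hydrated with total counts. With 2 libraries per stage a gene that was not called may still have changed.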

Other observations

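Outside the 73 members, 27 assembly genes followed the members' profile before rewetting, with an SD under 0.5 on the log2 scale over the 8 libraries other than Rehydrated. Their lower Rehydrated value was a median of 0.558 times the highest other value, with a range of 0.0711 to 3.67, and 10 of the 27 were above 1. Among the 6371 other genes at this count level the median was 0.103 times, and 1.76% were above 1.

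Many genes met the rule in a single Rehydrated library. With Rehydrated 1 alone 69 further assembly genes met it, of which 64 had under 20 counts in Rehydrated 2 and 20 had none there. With Rehydrated 2 alone 91 further genes met it, of which 51 had under 20 counts in Rehydrated 1 and 8 had none. Their median counts in the library that met the rule were 33.1 and 37.0. No test of these genes was made.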
